A study of Setaria viridis with 32 samples.

Results

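Tonoplast intrinsic proteins (TIPs) are the aquaporins of the vacuolar membrane, and the seed head of *Setaria viridis*, a small C4 grass, changed the mix of them that it transcribed after grain set. The genes described here are 7 loci chosen by name, *SvTIP1;1*, *SvTIP1;2*, *SvTIP2;4*, *SvTIP3;1*, *SvTIP3;3*, *SvTIP4;1* and *SvTIP4;2*. They are 7 of the 38334 loci in the count files, 7 of the 11 genes that the study names TIP, and 7 of the 28 aquaporins on its list of sugar and water transport genes. The list goes by name and locus and not by a measured value, but it was chosen with earlier results of these data known. RNA came from whole seed heads of 2 wild-type ecotypes, A.10 and ME034V, grown without treatment. Heads were taken when 50% of the seed head had emerged (50% SH), at anthesis, and 8 and 16 days after anthesis (DAA), with 4 replicates per stage and ecotype. Each replicate was a pool of 4 plants, so that 32 poly(A) libraries were compared and the p-values below measure the spread between pools. A whole head holds rachis, bristles, glumes, florets and grain, and in such bulk RNA fewer cells of a type and less RNA per cell cannot be told apart.

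An aquaporin is a small membrane pore that lets water, and in some cases other small molecules such as urea or ammonia, move along its gradient. TIPs set how fast water crosses the membrane of the vacuole, the compartment that fills most of a grown plant cell and gives it turgor. TIP1 and TIP2 proteins are the common forms in the large vacuoles of growing tissue. TIP3 proteins are known from *Arabidopsis* and other seed plants as the forms of the protein storage vacuoles of seeds, TIP4 proteins are less well described, and in *Arabidopsis* TIP5 transcripts belong to pollen.

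The 7 genes lie on 4 chromosomes of the *S. viridis* v2.1 annotation. *SvTIP1;1* (Sevir.9G545800) is on chromosome 9, positions 53836151 to 53837997, plus strand. The same chromosome carries *SvTIP3;1* (Sevir.9G207100, minus strand, 14823166 to 14824535) and *SvTIP3;3* (Sevir.9G574900, minus strand, 55786632 to 55788183). On chromosome 5, minus strand, are *SvTIP1;2* (Sevir.5G476000), 46597046 to 46597897, and *SvTIP4;1* (Sevir.5G007200), 548624 to 550555. *SvTIP2;4* (Sevir.4G127600) is on the minus strand of chromosome 4, at 23337899 to 23339312, and *SvTIP4;2* (Sevir.3G084000) on the plus strand of chromosome 3, at 5393312 to 5396784. None of the 7 overlaps another locus. *SvTIP4;1* sits between 2 relatives, with *SvTIP4;3* 3372 bp to one side and *SvTIP4;4* 6743 bp to the other and no other locus in between. Reads that mapped to more than 1 place were not counted, so copies that share sequence may each have lost reads.

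Levels are given as FPKM, which are fragments scaled to the length of the locus and to the depth of the library, as the authors normalised them within each ecotype. The locus length includes introns, which lowers the level of a long locus such as *SvTIP4;2* (3473 bp) beside a short one such as *SvTIP1;2* (852 bp). Ecotypes are compared as CPM, counts scaled to depth alone, set over all 32 libraries, and tests are edgeR quasi-likelihood tests on the counts. The verbs rose and fell are used for an adjusted p under 0.05, with the Benjamini-Hochberg adjustment made across every locus in the fit, and SE is the standard error of a log2 fold change. Total counts per library were 4557079 to 21175874, and every one of the 7 genes passed the filter on low counts in both ecotypes.

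The late libraries were richer in transcripts for starch synthesis, which fills the grain. The 22 starch synthesis genes on the study's list took 0.142% to 0.195% of the counts in the 16 early libraries (50% SH and anthesis) and 0.418% to 1.33% in the 16 late ones (8 and 16 DAA). The most abundant of them in late A.10 heads, the starch synthase gene Sevir.4G021900, went from a mean of -0.40 log2 FPKM at 50% SH to 9.80 at 16 DAA. Not every gene of the list went up. For late against early in A.10, edgeR called 16 of the 21 tested higher and 4 lower, with 1 not called. In ME034V it called 14 of 22 higher and 4 lower, with 4 not called. Of all loci, 77% in A.10 and 66.6% in ME034V were called in either direction. Singled out after their values were seen, 3 libraries lay outside the range of the other 3 of their group for several of the 7 TIPs. They changed calls or values when left out. The criterion for libraries that stand far apart, given below, did not flag A.10 8 DAA replicate 1 for any of the 7. ME034V 16 DAA replicate 3 held 795 FPKM of *SvTIP3;1* against 201 to 222, and its starch genes took 0.418% of the counts against 0.791% to 0.872%. A.10 8 DAA replicate 1 held 6.39 FPKM of *SvTIP2;4* against 1.58 to 4.05, and ME034V 50% SH replicate 1 held 159 FPKM of *SvTIP1;1* against 377 to 462. Where leaving out 1 of them changed a call of the 7 genes, this is stated.

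**Figure D1:**
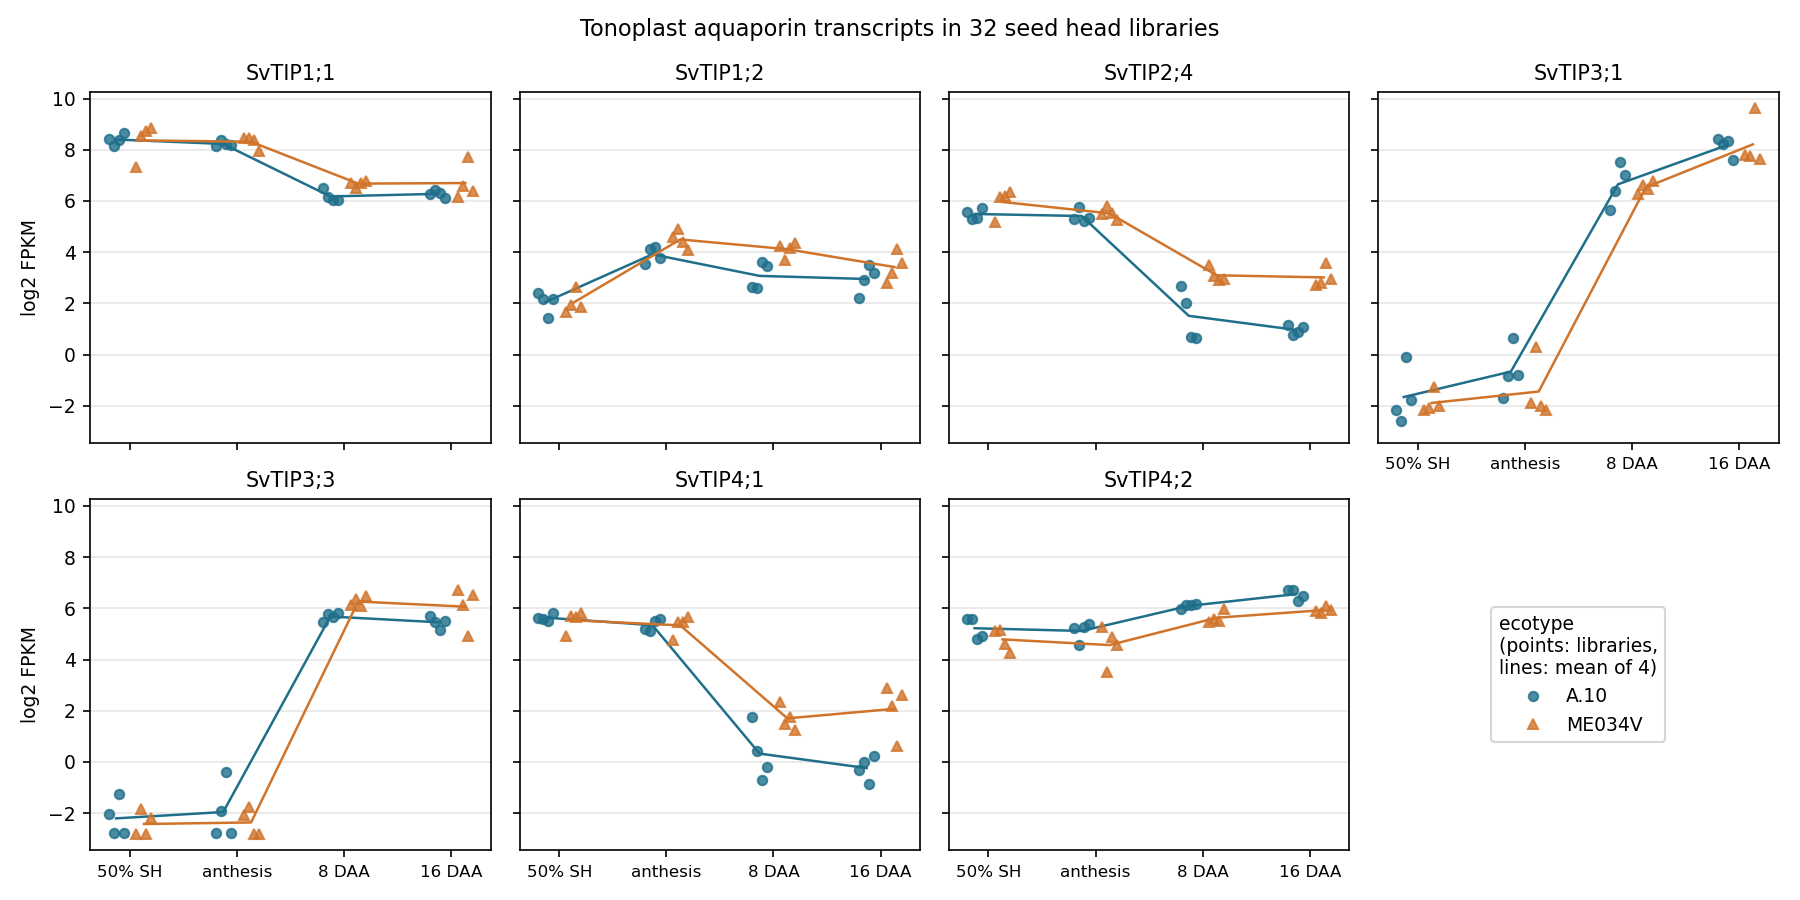
Transcript level of each of the 7 TIPs (y axis, log2 FPKM) at the 4 stages (x axis) in A.10 (circles) and ME034V (triangles), with every library as a point and the mean of 4 as a line. *SvTIP3;1* and *SvTIP3;3* stand below 1 log2 FPKM in all early libraries and above 4 in all late ones, while *SvTIP2;4* and *SvTIP4;1* drop after anthesis and drop further in A.10.

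The 2 seed-type genes, *SvTIP3;1* and *SvTIP3;3*, were close to absent before grain set and among the main TIPs after it. *SvTIP3;1* had 1, 0, 5 and 1 counts in the 4 A.10 libraries at 50% SH and 1, 3, 16 and 6 at anthesis. In ME034V these counts were 1, 1, 3 and 1 at 50% SH and 1, 12, 1 and 2 at anthesis. One anthesis library of each ecotype thus held more reads than the rest, replicate 3 in A.10 and replicate 2 in ME034V. At 8 DAA the level was 49.9, 84.4, 186 and 129.9 FPKM in A.10 and 76.3, 97.4, 88.7 and 111 FPKM in ME034V. At 16 DAA it was 347, 299, 325 and 195 FPKM in A.10 and 222, 218, 795 and 201 FPKM in ME034V. No early library came near a late one, and at 16 DAA the gene ranked 103 among the 23582 A.10 loci with an FPKM and 78 among the 23713 of ME034V.

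*SvTIP3;3* appeared at the same time. Its counts were 2, 0, 2 and 0 (A.10) and 0, 2, 0 and 1 (ME034V) at 50% SH, and 0, 1, 8 and 0 and 1, 2, 0 and 0 at anthesis. The level at 8 DAA was 44.6, 54.2, 50.8 and 56.2 FPKM in A.10 and 70.8, 82.3, 68.04 and 88.4 FPKM in ME034V. At 16 DAA it was 52.5, 43.7, 35.9 and 45.3 FPKM in A.10 and 104, 69.4, 30.5 and 90.8 FPKM in ME034V, where replicate 3 was the lowest. Both genes thus went from at most 16 counts to 574 to 1861 counts per library within the step from anthesis to 8 DAA, and the early and late libraries did not overlap in either ecotype.

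The sizes of these rises rest on very few early reads. For *SvTIP3;3* in ME034V, 4018 counts at 8 DAA stood against 3 at anthesis, a ratio of 1850 with a 95% counting interval of 633 to 8990. In A.10 it was 2752 against 9, a ratio of 259 (136 to 566). For *SvTIP3;1* the counts were 5094 against 26 in A.10, a ratio of 166 (113 to 254), and 4271 against 16 in ME034V, a ratio of 369 (227 to 646). These exact intervals cover counting error only. In the fits from anthesis to 8 DAA, *SvTIP3;1* rose in ME034V with a log2 fold change of 8.42 (SE 0.65, adjusted p of 2.1e-08, edgeR), and *SvTIP3;3* with a log2 fold change of 10.56 (SE 0.56, adjusted p of 2.8e-10, edgeR). In A.10 the same step gave a log2 fold change of 7.44 (SE 0.53, adjusted p of 1.9e-09, edgeR) and a log2 fold change of 7.97 (SE 0.34, adjusted p of 5.3e-12, edgeR).

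The pair parted after 8 DAA. *SvTIP3;1* rose again from 8 to 16 DAA, at a log2 fold change of 1.37 (SE 0.30, adjusted p of 0.0034, edgeR) in A.10 and a log2 fold change of 1.94 (SE 0.39, adjusted p of 0.0063, edgeR) in ME034V. For *SvTIP3;3* the log2 fold change over that step was -0.22 (SE 0.17) in A.10 and -0.07 (SE 0.27) in ME034V, and neither passed. Whether the 2 genes differ in their change was not tested. Without ME034V 16 DAA replicate 3, which held 795 FPKM of *SvTIP3;1*, the ME034V rise was 1.196 (SE 0.20, adjusted p of 0.0010, edgeR), and without A.10 8 DAA replicate 1 the A.10 rise was 1.12 (SE 0.24, adjusted p of 0.0035, edgeR). DESeq2 put the rise at 1.36 in A.10 and 1.94 in ME034V and called neither (adjusted p of 0.11 and 0.054). Within a library, the level of *SvTIP3;1* was 1.12 to 3.67 times that of *SvTIP3;3* at 8 DAA in A.10 and 4.30 to 9.07 times at 16 DAA. In ME034V the ratio was 1.08 to 1.30 at 8 DAA, 2.13 to 3.14 in 3 libraries at 16 DAA and 26.0 in replicate 3. By counts, which are not divided by length, *SvTIP3;3* was the higher in replicate 1 of 8 DAA. This held in A.10 (728 against 719) and in ME034V (960 against 913).

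**Figure D2:**
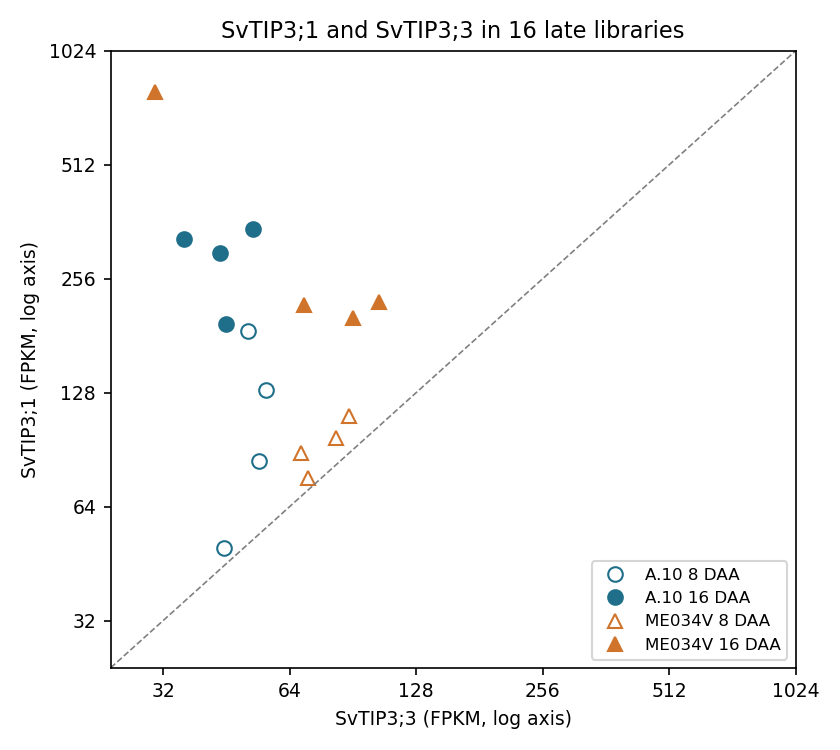
FPKM of *SvTIP3;1* (y axis) against *SvTIP3;3* (x axis), both on log axes, in the 16 late libraries. Open symbols are 8 DAA, filled symbols 16 DAA, circles A.10 and triangles ME034V, and the dashed line marks equal levels. All 16 points lie above the line, those of ME034V at 8 DAA close to it (1.08 to 1.30 times), and ME034V 16 DAA replicate 3 stands alone at 795 FPKM of *SvTIP3;1* and 30.5 FPKM of *SvTIP3;3*.

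*SvTIP1;1*, of the type found in the large vacuoles of growing cells, was the most abundant TIP before grain set. Its level at 50% SH was 340.5, 286, 333 and 403 FPKM in A.10 and 159, 377, 428 and 462 FPKM in ME034V. At anthesis it was 281, 334, 297 and 289 FPKM in A.10 and 349, 352, 338 and 246 FPKM in ME034V. The lowest early libraries were ME034V 50% SH replicate 1 and ME034V anthesis replicate 4, and at 50% SH the gene ranked 40 among all loci of each ecotype. At 8 DAA the level was 89.8, 70.5, 65.9 and 65.6 FPKM in A.10 and 105, 90.1, 105 and 110.3 FPKM in ME034V. At 16 DAA it was 76.6, 85.04, 79.7 and 69.9 FPKM in A.10 and 70.6, 94.8, 208 and 84.1 FPKM in ME034V, of which replicate 3 reached into the early range. From anthesis to 8 DAA the gene fell in both ecotypes. The log2 fold change was -2.04 (SE 0.12, adjusted p of 1.3e-10, edgeR) in A.10 and -1.65 (SE 0.32, adjusted p of 4.4e-04, edgeR) in ME034V. Its change from 8 to 16 DAA did not pass in either ecotype, at 0.09 (SE 0.11) in A.10 and 0.15 (SE 0.31) in ME034V on the log2 scale.

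*SvTIP2;4*, the only TIP2 gene among the 7, fell after anthesis in both ecotypes. Its level was 47.9, 39.3, 40.6 and 53.6 FPKM at 50% SH and 39.7, 54.7, 37.2 and 40.7 FPKM at anthesis in A.10. In ME034V it was 36.2, 70.9, 72.8 and 80.5 FPKM at 50% SH and 44.7, 56.3, 45.6 and 38.01 FPKM at anthesis. At 8 DAA the A.10 libraries held 6.39, 4.05, 1.62 and 1.58 FPKM, with the first the highest, and at 16 DAA 2.25, 1.69, 1.82 and 2.09 FPKM. The ME034V libraries held 11.2, 8.33, 7.51 and 7.68 FPKM at 8 DAA and 6.62, 6.904, 12.1 and 7.68 FPKM at 16 DAA. Every late library was thus below every early one in both ecotypes. From 50% SH to anthesis the ME034V change was -0.50 (SE 0.22) and did not pass, but without 50% SH replicate 1 it was -0.70 (SE 0.18, adjusted p of 0.010, edgeR). The step from anthesis to 8 DAA had a log2 fold change of -3.66 (SE 0.28, adjusted p of 5.8e-09, edgeR) in A.10 and a log2 fold change of -2.43 (SE 0.24, adjusted p of 3.7e-07, edgeR) in ME034V. Without A.10 8 DAA replicate 1 the A.10 value was -4.27 (SE 0.25).

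From anthesis to 8 DAA *SvTIP4;1* had the largest fall of the 7 in both ecotypes. In A.10 the level was 48.8, 48.4, 45.6 and 56.99 FPKM at 50% SH and 36.4, 34.6, 45.4 and 47.4 FPKM at anthesis. In ME034V it was 30.5, 52.3, 51.2 and 56.2 FPKM at 50% SH and 27.1, 44.1, 43.6 and 50.9 FPKM at anthesis. At 8 DAA there were 67, 19, 7 and 13 counts left in the A.10 libraries, which is 3.401, 1.35, 0.615 and 0.8703 FPKM, and at 16 DAA 0.806, 0.988, 0.546 and 1.18 FPKM. ME034V libraries kept 5.02, 2.83, 3.36 and 2.34 FPKM at 8 DAA and 7.37, 4.49, 1.54 and 6.14 FPKM at 16 DAA. A.10 8 DAA replicate 1 was the highest of its group and ME034V 16 DAA replicate 3 the lowest of its own. At this step the gene fell in ME034V with a log2 fold change of -3.66 (SE 0.35, adjusted p of 2.8e-07, edgeR). In A.10 the change was -4.73 (SE 0.29), and -5.64 (SE 0.22) without replicate 1 of 8 DAA.

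*SvTIP4;2* took the opposite course to *SvTIP4;1*, at a moderate size. Its level was 47.7, 47.7, 28.03 and 30.4 FPKM at 50% SH and 37.8, 23.4, 38.96 and 41.9 FPKM at anthesis in A.10, and 34.8, 35.6, 24.3 and 19.2 and 39.1, 11.5, 29.3 and 23.7 FPKM in ME034V. The early libraries were widely spread, with ME034V anthesis replicate 2 the lowest of all. At 8 DAA the level was 62.3, 69.3, 70.5 and 71.7 FPKM in A.10 and 44.1, 48.1, 44.9 and 63.3 FPKM in ME034V. At 16 DAA it was 105, 106, 78.3 and 89.4 FPKM in A.10 and 58.9, 56.1, 68.96 and 60.9 FPKM in ME034V. In each ecotype every late library was above every early one. From anthesis to 8 DAA the gene rose with a log2 fold change of 0.94 (SE 0.18, adjusted p of 2.2e-04, edgeR) in A.10 and a log2 fold change of 0.96 (SE 0.27, adjusted p of 0.0076, edgeR) in ME034V. The step from 8 to 16 DAA did not pass in A.10 (0.47, SE 0.18, adjusted p of 0.062, edgeR), but did in DESeq2 (0.45, adjusted p of 0.045) and in the 8 libraries of that step alone (0.46, adjusted p of 0.012, edgeR).

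*SvTIP1;2*, the second TIP1 gene, was the single member that changed between 50% SH and anthesis with all libraries in the fit. Its level at 50% SH was 5.31, 4.51, 2.71 and 4.48 FPKM in A.10 and 3.19, 3.83, 6.15 and 3.61 FPKM in ME034V. At anthesis it was 11.7, 17.6, 18.6 and 13.5 FPKM in A.10 and 24.4, 29.8, 20.9 and 17.1 FPKM in ME034V, above every 50% SH library of the same ecotype. The rise had a log2 fold change of 1.85 (SE 0.29, adjusted p of 9.4e-05, edgeR) in A.10 and a log2 fold change of 2.53 (SE 0.29, adjusted p of 5.2e-06, edgeR) in ME034V. At 8 DAA the level was 6.16, 6.14, 12.2 and 10.9 FPKM in A.10 and 18.9, 12.99, 17.9 and 20.5 FPKM in ME034V, and at 16 DAA 4.602, 7.597, 11.3 and 9.07 and 6.88, 9.14, 17.3 and 11.97 FPKM. From anthesis to 8 DAA it fell in A.10, with a log2 fold change of -0.83 (SE 0.27, adjusted p of 0.012, edgeR), while in ME034V the change was -0.39 (SE 0.25) and did not pass. From 8 to 16 DAA it was -0.64 (SE 0.27) in ME034V and did not pass, but passed without replicate 3 of 16 DAA (-0.91, SE 0.25, adjusted p of 0.036, edgeR).

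Counted by step, the 7 genes changed mostly between anthesis and 8 DAA, as did the transcriptome as a whole. From 50% SH to anthesis 1 of 7 changed in each ecotype, where 34.5% of all loci tested were called in A.10 and 18.5% in ME034V. Without the 3 singled out libraries together, *SvTIP2;4* and *SvTIP1;1* also fell at this step in ME034V (-0.70 and -0.39, adjusted p of 6.6e-04 and 0.035, edgeR). From anthesis to 8 DAA 3 rose and 4 fell in A.10 (62.6% of loci called), and 3 rose and 3 fell in ME034V (46.6%). From 8 to 16 DAA only *SvTIP3;1* changed in either ecotype (25.7% and 6.71%). Between the mean of the early and the mean of the late stages 3 rose and 3 fell in A.10 (77% of loci called), and 4 rose and 3 fell in ME034V (66.6%), where *SvTIP1;2* was the fourth riser, at 0.56 (SE 0.19, adjusted p of 0.018, edgeR). That last call was lost when the same 3 libraries were left out together (0.36, adjusted p of 0.086, edgeR). The median log2 fold change of the 7 from anthesis to 8 DAA was -0.83 in A.10 and -0.39 in ME034V, beside medians of 0.041 and 0.003 over all loci. In both ecotypes the median was the value of *SvTIP1;2*. With single genes from -4.73 to 10.56, the median did not stand for the others. The CPM of the early and the late libraries did not overlap for 6 of the 7 in A.10, where this held for 39.2% of loci, and for 5 of the 7 in ME034V (30.5%).

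**Figure D3:**
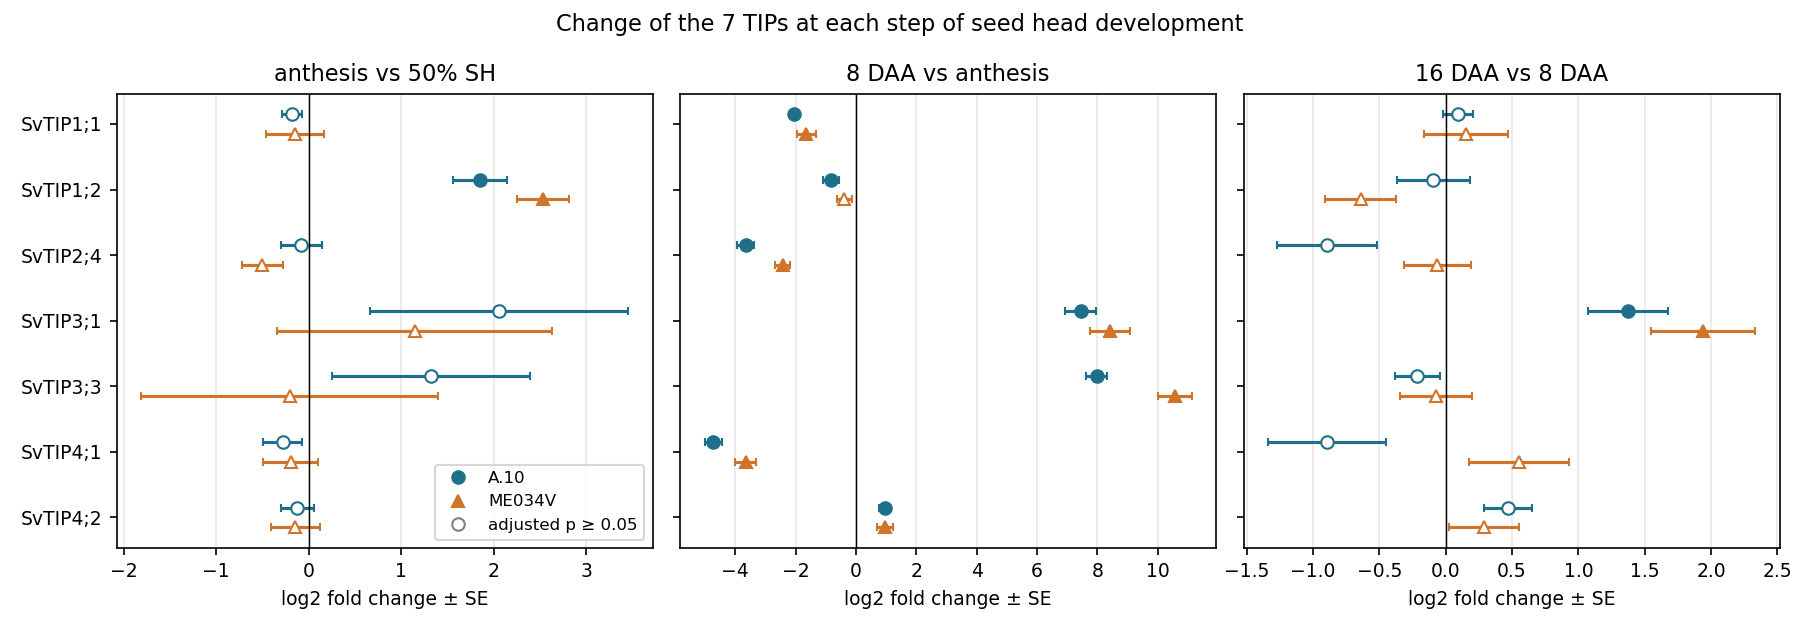
Log2 fold change (x axis, with SE as bars) of each of the 7 TIPs over the 3 steps of development, in A.10 (circles) and ME034V (triangles). Filled symbols passed an adjusted p of 0.05, open symbols did not, and each panel has its own x scale. The first step has only *SvTIP1;2* filled, the middle step has 7 filled genes in A.10 and 6 in ME034V, and the last step has only *SvTIP3;1* filled.

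The order of the 7 by level was turned over between anthesis and 8 DAA. At both early stages of both ecotypes *SvTIP1;1* came first, its 4 libraries above all others by a mean of 2.40 to 2.82 log2 FPKM to the second gene. *SvTIP4;1*, *SvTIP2;4* and *SvTIP4;2* followed close together, each overlapping with the next at every early stage. Then came *SvTIP1;2*, clear of the genes above it except at anthesis in ME034V, and *SvTIP3;1* and *SvTIP3;3* stood at the bottom. The 2 TIP3 genes overlapped with each other at every early stage and *SvTIP3;1*, the higher by its mean, stood 3.71 to 5.94 log2 FPKM under *SvTIP1;2*. At 8 DAA *SvTIP3;1* led in A.10, by a mean level that overlapped with *SvTIP1;1* and *SvTIP4;2*, and was the highest in 3 of 4 libraries. In ME034V *SvTIP1;1* and *SvTIP3;1* were highest in 2 libraries each and did not differ beyond their spread. At 16 DAA *SvTIP3;1* was the highest in all 8 libraries, 1.598 log2 FPKM above *SvTIP4;2* in A.10 without overlap. In ME034V its range overlapped with that of *SvTIP1;1*, whose replicate 3 was at 208 FPKM. *SvTIP2;4* and *SvTIP4;1* closed the order at both late stages of both ecotypes. Of the 48 pairs of neighbours in the 8 orders, 23 had ranges that did not overlap.

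As a share of all TIP transcripts, *SvTIP1;1* gave way to *SvTIP3;1*. The summed level of the 11 TIPs was 518 ± 59.4 FPKM (SD, n = 4) in A.10 heads at 50% SH. It was 472 ± 23.5 FPKM at anthesis, then 334 ± 54.5 FPKM at 8 DAA, and 539.8 ± 76.4 FPKM at 16 DAA. In ME034V it was 532 ± 173, 486 ± 57.0, 378 ± 38.7 and 657 ± 329 FPKM, the last with 1 library at 1151 FPKM. The 7 members made up 91.8% to 98.4% of it in each library. *SvTIP1;1* held 65.6% ± 2.74 of the pool at 50% SH in A.10 and 65.5% ± 5.91 in ME034V (SD, n = 4), and 14.6% ± 1.51 and 17.2% ± 2.32 at 16 DAA. *SvTIP3;1* held 0.0561% to 0.158% of the pool at the early stages, as group means. These early shares rest on few reads and on FPKM values that stay positive at 0 counts, and by CPM they were 0.0162% to 0.0877%. The gene went to 32.2% ± 12.2 at 8 DAA in A.10 and 24.6% ± 2.14 in ME034V, and to 53.4% ± 6.26 and 49.8% ± 12.9 at 16 DAA. The share of *SvTIP3;3* was largest at 8 DAA, 15.6% ± 2.21 in A.10 and 20.5% ± 1.52 in ME034V. *SvTIP2;4* held 8.73% to 12.4% of the pool at the early stages and 0.370% to 2.33% at the late ones, and *SvTIP4;1* 8.69% to 9.67% and 0.169% to 0.945%, as group means. By CPM, which does not divide by length, the largest share at 8 DAA in A.10 passed from *SvTIP3;1* to *SvTIP4;2*, and the other 7 stage and ecotype groups kept the same leader.

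**Figure D4:**
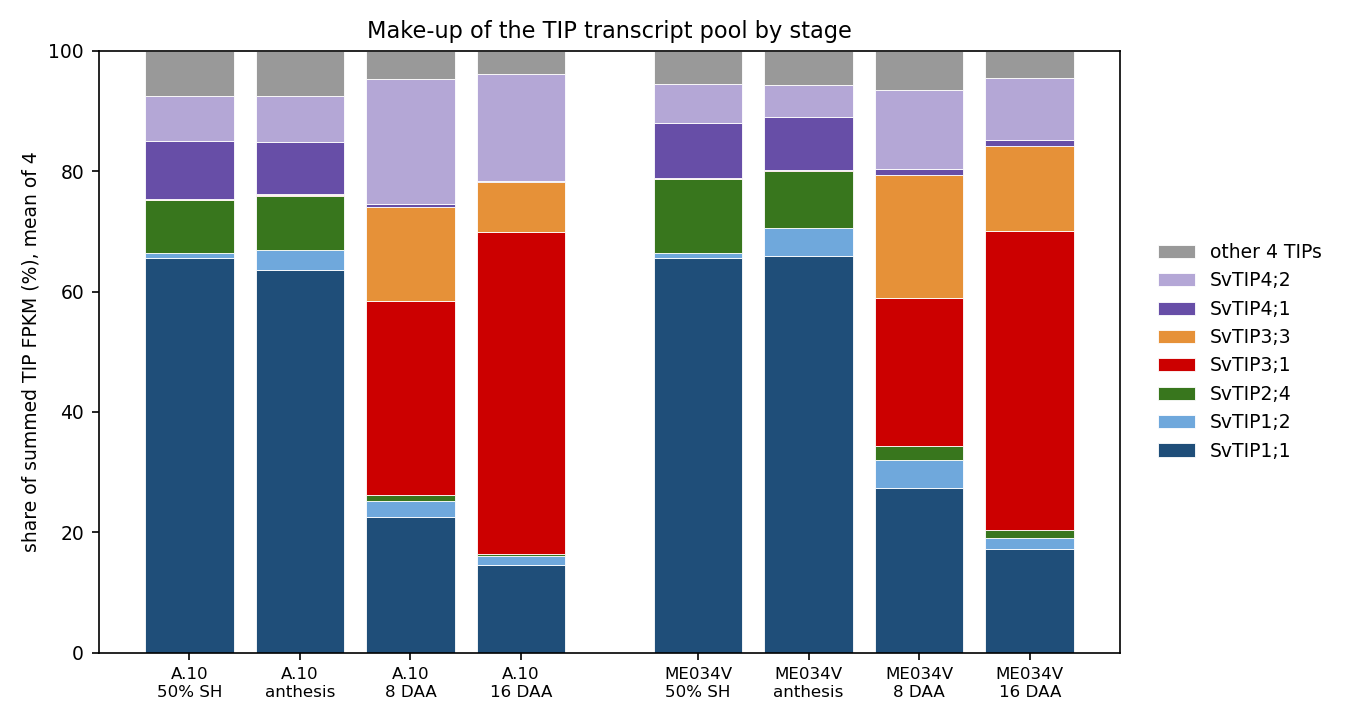
Mean share (y axis, percent, mean of 4 libraries) of each TIP in the summed FPKM of the 11 TIPs at each stage of A.10 (left 4 bars) and ME034V (right 4 bars). *SvTIP1;1* (dark blue) holds 63.6% to 65.9% of the early bars, and *SvTIP3;1* (red) holds 53.4% of the 16 DAA bar of A.10 and 49.8% of that of ME034V.

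With all libraries in the fit, differences between the ecotypes in the level of the 7 TIPs were called at 8 and 16 DAA and not at the earlier stages. At 50% SH and at anthesis 0 of 7 members differed between ME034V and A.10, where 15.5% and 14.3% of all loci were called. At an unadjusted p under 0.05 edgeR had 1 at each of these stages, *SvTIP4;2*, and DESeq2 called 0 at both. Without ME034V 50% SH replicate 1, *SvTIP2;4* was called at 50% SH (0.66, SE 0.23, adjusted p of 0.0496, edgeR), and without ME034V anthesis replicate 1, *SvTIP4;2* at anthesis (-0.78, SE 0.25, adjusted p of 0.032, edgeR). At 8 DAA 2 were higher in ME034V (21.8% of loci called), *SvTIP2;4* and *SvTIP1;2*. At 16 DAA *SvTIP2;4*, *SvTIP4;1* and *SvTIP3;3* were higher and *SvTIP4;2* lower (28.4%). These tests come from a joint fit over 25264 loci. Reads of both ecotypes were mapped to the same reference, and any effect of this on the differences was not tested.

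*SvTIP2;4* at 8 DAA stood at 8.99, 5.59, 2.08 and 2.04 CPM in A.10 and 15.2, 11.3, 10.2 and 10.4 CPM in ME034V, with every ME034V library above every A.10 one. At 16 DAA the values were 2.98, 2.19, 2.37 and 2.77 CPM and 8.93, 9.32, 16.4 and 10.4 CPM, again without overlap. The difference had a log2 fold change of 1.29 (SE 0.31, adjusted p of 0.0027, edgeR) at 8 DAA and a log2 fold change of 2.11 (SE 0.35, adjusted p of 2.4e-05, edgeR) at 16 DAA. For *SvTIP4;1* the 16 DAA values were 1.34, 1.703, 0.838 and 2.08 CPM in A.10 and 13.7, 8.26, 2.69 and 11.4 CPM in ME034V. The lowest ME034V library, replicate 3, was still above the highest A.10 one, and the difference had a log2 fold change of 2.49 (SE 0.45, adjusted p of 8.1e-05, edgeR). At 8 DAA its difference of 1.04 (SE 0.42) did not pass (adjusted p of 0.077, edgeR), but did in DESeq2 (1.12, adjusted p of 0.043), and without A.10 8 DAA replicate 1 it was 1.92 (SE 0.45, adjusted p of 0.0020, edgeR).

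The fall of these 2 genes was smaller in ME034V than in A.10. The ecotypes differed in the change between the early and late stages by 1.45 (SE 0.29, adjusted p of 0.0010, edgeR) for *SvTIP2;4* and 1.86 (SE 0.37, adjusted p of 9.2e-04, edgeR) for *SvTIP4;1* on the log2 scale. These were 2 of 7 members, both toward ME034V, where 13.9% of all loci were called in either direction, and DESeq2 called *SvTIP3;3* as well (2.07, adjusted p of 0.049). Both passed in each of the 32 fits with 1 library left out, at 1.32 to 1.74 and 1.72 to 2.30, the highest values of both without A.10 8 DAA replicate 1. For no single step did any member pass (0.119%, 2.13% and 0.139% of loci called in the 3 steps), while 3 results had an unadjusted p under 0.05 in edgeR, all of these same 2 genes, and DESeq2 called 0. Without A.10 8 DAA replicate 1, however, the step from anthesis to 8 DAA passed for *SvTIP2;4* (1.83, SE 0.38, adjusted p of 0.0036, edgeR) and *SvTIP4;1* (1.96, SE 0.52, adjusted p of 0.020, edgeR). The starch genes took 1.07% to 1.33% of A.10 counts and 0.753% to 0.937% of ME034V counts at 8 DAA, and 0.974% to 1.04% and 0.418% to 0.872% at 16 DAA. Their part in the differences of the 2 TIPs was not tested.

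The other differences between ecotypes were smaller and less firm. *SvTIP1;2* at 8 DAA stood at 5.13, 5.08, 10.2 and 9.16 CPM in A.10 and 15.5, 10.6, 14.7 and 16.8 CPM in ME034V, a log2 difference of 0.97 (SE 0.28, adjusted p of 0.011, edgeR). Without A.10 8 DAA replicate 2 it did not pass (0.83, adjusted p of 0.0503, edgeR). *SvTIP3;3* at 16 DAA stood at 81.9, 68.5, 56.2 and 71.1 CPM in A.10 and 158, 105, 45.99 and 138 CPM in ME034V, where replicate 3 lay below every A.10 library. Its log2 difference was 0.69 (SE 0.25, adjusted p of 0.037, edgeR), and without that library 0.94 (SE 0.19, adjusted p of 2.4e-04, edgeR). The call was lost without any 1 of A.10 16 DAA replicates 2, 3 or 4 or ME034V 16 DAA replicates 1 or 4, with values of 0.47 to 0.70. *SvTIP4;2* was lower in ME034V at 16 DAA, at 199.5, 190.1, 233 and 207 CPM against 367, 374, 275 and 315 CPM in A.10. The log2 difference was -0.68 (SE 0.24, adjusted p of 0.033, edgeR), next to -0.50 to -0.52 at the 3 earlier stages, which did not pass. Leaving out any 1 of A.10 16 DAA replicates 1 or 2 or ME034V 16 DAA replicates 1, 2 or 4 took it above the threshold, at -0.62 to -0.68. With all libraries in the fit, *SvTIP1;1* and *SvTIP3;1* were not called at any stage.

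**Figure D5:**
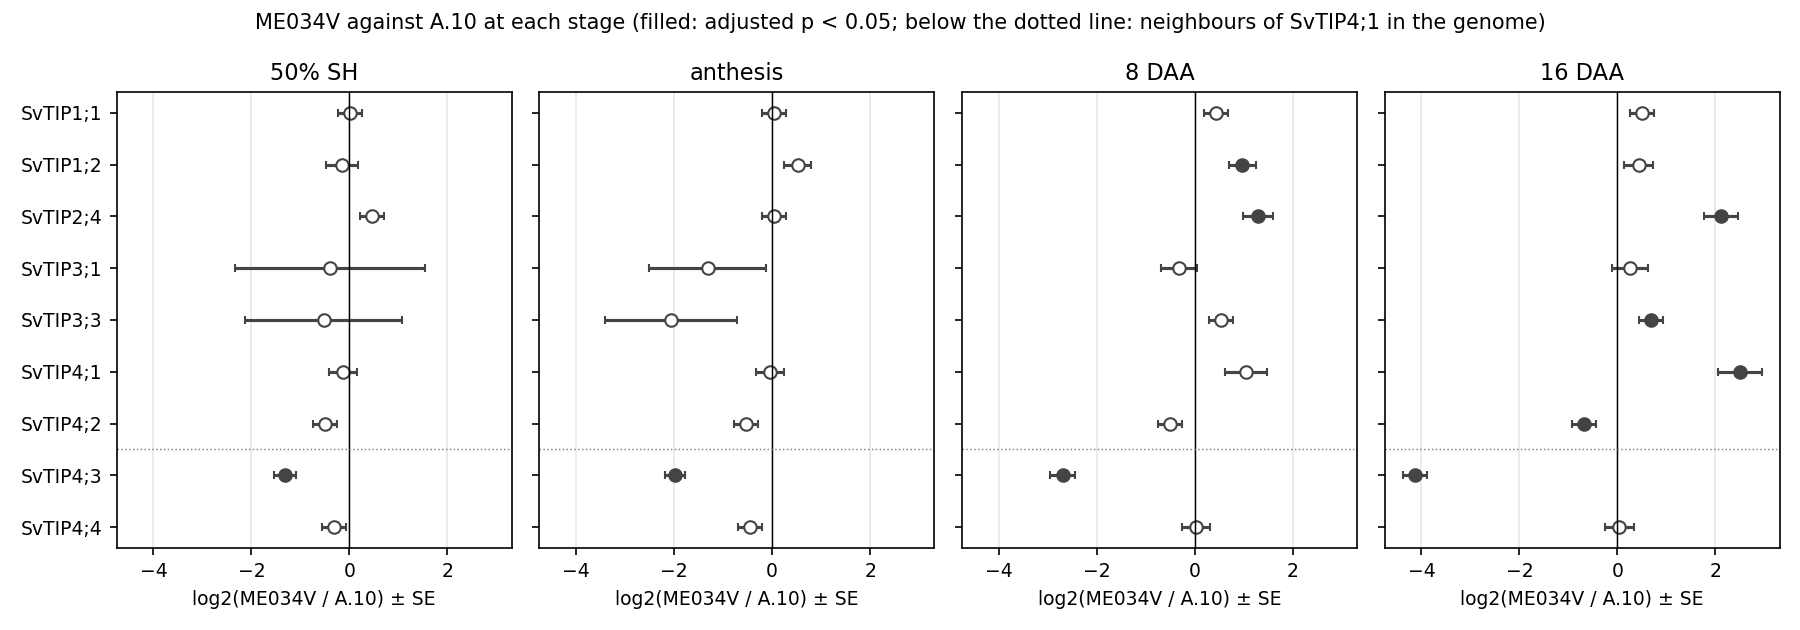
Log2 ratio of ME034V to A.10 (x axis, with SE as bars) at each stage for the 7 TIPs and, below the dotted line, the loci on either side of *SvTIP4;1*. Filled symbols passed an adjusted p of 0.05. The first 2 panels have no filled symbol among the 7, *SvTIP2;4* and *SvTIP4;1* move to the right at 16 DAA (2.11 and 2.49), and *SvTIP4;3* is to the left in all 4 panels, at -4.14 in the last.

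Of the 3 adjacent TIP4 loci on chromosome 5, *SvTIP4;1* and *SvTIP4;4* fell from early to late in both ecotypes. *SvTIP4;3* fell in ME034V alone (-1.45, adjusted p of 2.2e-05, edgeR), with 0.32 (SE 0.10) in A.10. *SvTIP4;3*, the neighbour at 541669 to 545251, was low, with means of 3.21, 7.92, 3.46 and 11.3 FPKM over the 4 stages in A.10 and 1.38, 2.09, 0.598 and 0.726 FPKM in ME034V. In A.10 it rose to anthesis, fell to 8 DAA and rose again to 16 DAA, with changes of 1.34 (SE 0.15), -1.22 (SE 0.15) and 1.73 (SE 0.14) on the log2 scale, each past the threshold. It was lower in ME034V at all 4 stages, with log2 differences of -1.32 (SE 0.23) at 50% SH and -4.14 (SE 0.25, adjusted p of 4.1e-14, edgeR) at 16 DAA, where *SvTIP4;1* was higher. *SvTIP4;4*, at 557299 to 558985, fell from early to late in both ecotypes, with log2 fold changes of -2.34 (SE 0.12) in A.10 and -1.94 (SE 0.23) in ME034V. It did not pass between ecotypes at any stage, with 0.02 (SE 0.29) at 8 DAA and 0.04 (SE 0.29) at 16 DAA. Differences between the 3 loci were not tested, nor was any effect of mapping both ecotypes to the same reference.

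Of the 2 remaining TIPs, *SvTIP5;1* came on at anthesis. It had 0, 0, 1 and 0 counts at 50% SH in A.10 and 0, 1, 0 and 0 in ME034V, and at anthesis 2.46, 2.32, 1.82 and 4.19 FPKM and 4.301, 6.17, 6.01 and 3.56 FPKM. In the fits it rose at this step in both ecotypes (adjusted p of 3.2e-04 in A.10 and 9.6e-08 in ME034V, edgeR). Its mean at anthesis, 8 and 16 DAA was 2.70, 2.46 and 0.809 FPKM in A.10 and 5.01, 8.42 and 4.93 FPKM in ME034V. From anthesis to 8 DAA it rose in ME034V (0.79, SE 0.26, adjusted p of 0.020, edgeR). That call was lost without anthesis replicate 4 or 8 DAA replicate 2. It was higher in ME034V at 8 DAA (1.75, SE 0.40) and at 16 DAA (2.79, SE 0.50), where the A.10 libraries held only 2 to 16 counts each. A.10 8 DAA replicate 1 held 6.19 CPM of it against 0.905 to 1.38 in the other 3, and without that library the 8 DAA difference was 2.92 (SE 0.37). *SvTIP2;1*, the second TIP2 gene, fell from early to late in A.10 (-0.54, SE 0.15, log2 scale) and rose in ME034V (1.44, SE 0.25), a difference of 1.99 (SE 0.31, adjusted p of 4.1e-05, edgeR). Like *SvTIP2;4*, it was higher in ME034V at 8 DAA (1.25, SE 0.30) and 16 DAA (1.93, SE 0.30).

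In the other aquaporin subfamilies, most of the genes for plasma membrane intrinsic proteins (PIPs) fell from early to late. These proteins carry water across the outer membrane of the cell. In A.10 1 of 8 PIP genes rose and 7 fell, and in ME034V 1 rose and 5 fell, where 77% and 66.6% of all loci were called in either direction. The largest rise and the largest fall of A.10 were those of *SvPIP1;5*, at 0.76 (SE 0.10), and *SvPIP2;7*, at -2.86 (SE 0.10). Of the 6 nodulin 26-like (NIP) genes 3 rose and 3 fell in A.10, and 3 rose and 2 fell in ME034V, with *SvNIP1;3* at 2.59 (SE 0.21) and *SvNIP4;1* at -5.71 (SE 0.42) at the ends in A.10. Of the 3 small basic (SIP) genes 1 rose and 2 fell in A.10, and 1 rose and 1 fell in ME034V. The A.10 values went from -0.45 (SE 0.06) for *SvSIP1;2* to 1.01 (SE 0.09) for *SvSIP1;1*. Relative to A.10, the change in ME034V was higher for 6 of 8 PIPs, 3 of 6 NIPs, 0 of 3 SIPs and 3 of the 11 TIPs, and lower for 0, 0, 0 and 1, beside 13.9% of all loci called in either direction. Smaller falls in ME034V were thus also found among the PIPs, as for *SvPIP2;7* (a difference of 1.62, SE 0.21).

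Over the 32 libraries the 7 genes fell into patterns, given here as Pearson's r of log2 CPM. The libraries share stages and scaling, so r describes a common course over the stages and carries no test. *SvTIP1;1*, *SvTIP2;4* and *SvTIP4;1* went together (0.904 to 0.966), as did *SvTIP3;1* and *SvTIP3;3* (0.972), and between these 2 sets r was -0.942 to -0.897. *SvTIP4;2* leaned to the TIP3 side (0.743 and 0.767), and *SvTIP1;2* followed none of the other 6 (-0.133 to 0.162). Among the 170 other genes on the study's list that were tested, the nearest to *SvTIP3;3* was the cell wall invertase gene Sevir.7G099100, with 0.997, and no other of the 25263 loci was closer. The starch synthase gene Sevir.4G021900 was nearest to *SvTIP3;1* (0.974, with 147 of all loci closer). The gene *SvPIP1;2* was nearest to both *SvTIP1;1* (0.967, with 7 loci closer) and *SvTIP2;4* (0.973, with 32 closer), and *SvNIP1;1* to *SvTIP4;1* (0.975, with 94 closer). For *SvTIP1;2* it was the glucosidase gene Sevir.1G346400 (0.869, with 34 closer), and for *SvTIP4;2* the hexose transporter gene Sevir.5G089300 (0.852, with 42 closer).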

How the data were processed

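Poly(A) RNA of 32 pools of seed heads was sequenced as read pairs of 125 bases. Per the labels and methods, the authors trimmed reads with Trim Galore (quality checked with FastQC 0.11.2), mapped them with Subjunc (Subread 1.6.2) to the *S. viridis* v2.1 reference for both ecotypes, kept unique alignments (SAMtools 1.2) and deposited counts per locus from featureCounts 1.5.0-p1. The counting was unstranded and spanned whole loci, introns included. The authors also deposited log2 FPKM values for each ecotype, TMM-scaled in edgeR, in which a locus with 0 counts has a small positive FPKM.

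Counts were tested in edgeR 4.0.16 (R 4.3.3) by quasi-likelihood with TMM scaling, for loci above a CPM of 1 in at least 3 libraries (23984 in A.10, 24144 in ME034V, 25264 jointly). All 4 stages of an ecotype shared 1 fit, and a joint fit of 32 libraries compared ecotypes. p-values were adjusted over all loci tested (Benjamini-Hochberg), with SE as the log2 fold change over the root of F. The fits were first tested on simulated counts. Alternatives were DESeq2 1.42.0 and its size factors, other filters, equal depth, each stage pair alone, a replicate block and leaving out libraries. The genes were named by the list of 7, with the other aquaporins, the starch genes and the genes nearest in pattern by a fixed rule, and *SvPIP2;7* of the ecotype differences, which was picked for its values. Members and lists were chosen with earlier results of these data known. For pattern likeness 0.5 was added to CPM. The labels give no shared origin for replicate numbers.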

Additional observations from a re-analysis of the deposited data

Results flagged for a closer look

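In 5 of the 56 sets of 4 libraries (7 genes, 8 groups), the highest or lowest library stood far from the other 3 in log2 FPKM by Dixon's criterion, where chance would give about 1 in 20, or 2.8. All 5 were ME034V libraries, so A.10 8 DAA replicate 1, singled out above, was not flagged. The flagged anthesis libraries were not among those singled out above. *SvTIP3;1* was at 9.63 in 16 DAA replicate 3, with 7107 counts, against 7.65 to 7.80 in the others. At anthesis the same gene was at 0.29 in replicate 2, on 12 counts, against -2.17 to -1.88. *SvTIP1;1* was at 7.94 in anthesis replicate 4 against 8.40 to 8.46. In 50% SH replicate 1, *SvTIP2;4* was at 5.18 against 6.15 to 6.33 and *SvTIP4;1* at 4.93 against 5.68 to 5.81.

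The shift between the early and late stages differed between ecotypes for 4 of the 11 TIPs, where 13.9% of all loci were called (ME034V relative to A.10, log2 scale, edgeR interaction test). It was higher in ME034V for *SvTIP2;4* by 1.45 (adjusted p of 0.0010), *SvTIP4;1* by 1.86 (adjusted p of 9.2e-04) and *SvTIP2;1* by 1.99 (adjusted p of 4.1e-05). It was lower in ME034V for *SvTIP4;3*, at -1.76 (adjusted p of 6.7e-06).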

How the results depend on the processing

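The 112 results of single members (38 called) had 3580 values under alternatives. Of these values 3535 kept the same call, 14 lost a call and 31 gained one, and 32 of the 38 calls were never lost. Where the main fit or the alternative had a call, 0 values changed direction. Direction was not compared where neither had one. Of 7 members, from 8 to 16 DAA DESeq2 called 0 in ME034V and the libraries of that step alone gave 2 in A.10. Leaving out together the 3 libraries singled out after seeing the data, and so narrowing the spread by construction, called 3 in ME034V from 50% SH to anthesis, 2 in ME034V from 8 to 16 DAA, 1 between ecotypes at 50% SH, 5 between ecotypes at 8 DAA, and 3 for the ecotype difference from anthesis to 8 DAA.

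With 1 library left out at a time, calls ranged from 1 to 3 for A.10 16 against 8 DAA (*SvTIP2;4* gained without 8 DAA replicate 3 or 4, *SvTIP4;1* without replicate 3, *SvTIP4;2* without 50% SH replicate 3, anthesis replicate 2 or 16 DAA replicate 3). They ranged from 1 to 2 for ME034V anthesis against 50% SH and for ME034V 16 against 8 DAA, and from 0 to 2 for the ecotype difference from anthesis to 8 DAA. Between ecotypes they ranged from 0 to 1 at 50% SH and at anthesis, 1 to 4 at 8 DAA and 2 to 4 at 16 DAA, where *SvTIP1;1* was gained without ME034V replicate 1 (0.68, adjusted p of 0.045, edgeR). At 8 DAA *SvTIP4;1* and *SvTIP3;3* were gained without ME034V 16 DAA replicate 3. The largest TIP share was held by the same gene in 8 of 8 groups, and 23 to 26 neighbours did not overlap.

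The replicate block changed no call of the 7 members in any comparison (for example 2 members for the ecotype difference between early and late stages, with or without it). Same-numbered libraries deviated together (r over 0.1 in every pair) in 1 of 28 group pairs, so the numbers were not taken as pairs. Fewer than 20 early counts lie behind each TIP3 value in any library, and their early levels and fold changes are accordingly imprecise.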
